A study of Homo sapiens with 6 samples.

Results

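The 10 Wnt pathway genes described here are 5 ligand genes (WNT5A, WNT7A, WNT7B, WNT4 and WNT10A), 4 receptor genes (FZD6, FZD7, LRP6 and LGR4) and the feedback gene AXIN2. They were chosen by gene name, with earlier results of these data known. All 10 were found among the 48644 gene rows of the expression table. The samples were 6 poly(A) RNA libraries of KYSE70 cells, a long-established line from a squamous carcinoma of the human esophagus. The cells stably carried a doxycycline-inducible pLKO-Tet-On hairpin vector against SOX2 or against TP63, whose products are transcription factors known from basal cells of squamous epithelia. Each line gave 1 library at day 0 without doxycycline and 2 libraries after 4 days of doxycycline at 50 ng/ml. The question the design puts is how gene expression differs once SOX2 or TP63 is suppressed. The day 0 cells carry the hairpin vector too, and the groups used here hold no cells with a hairpin against a target other than SOX2 or TP63. Within a line, effects of the hairpin, of doxycycline and of the days in culture therefore cannot be told apart. The induced libraries of both lines share the day and the dose, and differ from each other by line and hairpin. The titles number the libraries 1 or 2, and the day 0 library of each line has number 2. Each day 4 library numbered 1 is therefore set against a day 0 library of another number. The labels do not say whether the numbers mark cultures, clones or different hairpins.

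Wnt proteins are secreted, lipid-modified ligands that bind Frizzled receptors on nearby cells. With the co-receptors LRP5 and LRP6, some of them stabilise beta-catenin, which then activates target genes with TCF/LEF factors. Others, of which WNT5A is the standard example, act mostly without beta-catenin, on cell shape and movement. LGR4 is a receptor for R-spondins, which raise the amount of Frizzled at the cell surface. AXIN2 is a direct beta-catenin target that feeds back on the pathway as part of the destruction complex. In stratified epithelia, WNT7A, WNT7B, WNT4 and WNT10A are known as ligands made by epithelial cells.

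Values are levels on the scale log2(RPKM + 1), where RPKM is the read count scaled by gene length and library total, and base 2 is assumed. Differences are differences of these log2 values, which understate the fold of low genes. Linear RPKM, the same value turned back from the log2 scale, is given where named. The values carry a pattern of quantile normalization, described in the processing section. Linear levels, sums, ratios and shares are therefore of normalized values and not of plain scaled read counts. A mean linear level of 1 RPKM or more was required for testing, which left 10536 genes and 7 of the 10 Wnt genes. WNT4, WNT10A and AXIN2 were below that level. The read depth is unknown. The uninduced shTP63 library had 16167 genes above 0, against 21530 to 23509 in the others, and its smallest value above 0 was 0.143. It is the only day 0 library of its line and enters each shTP63 difference below. SOX2 stood at 6.25 in uninduced and at 5.65 and 4.67 in induced shSOX2 cells. TP63 stood at 3.99 in uninduced and at 2.26 and 2.11 in induced shTP63 cells. Neither decrease passed the test described below (limma adjusted p = 0.469 for SOX2 and 0.131 for TP63). In the shTP63 line SOX2 stood at 5.69 before and at 5.55 and 5.41 after induction. The induced shSOX2 library at 5.65 thus lay above both induced shTP63 libraries. Between the induced lines SOX2 was higher in shTP63 cells by 0.32 ± 0.37 (limma adjusted p = 0.621). Of 10 squamous epithelial markers, SOX2 and TP63 included, 8 were at 1 RPKM or more in all 6 libraries. KRT14 was at 0.58 to 0.84 RPKM in the shSOX2 line and at 1.75 to 5.51 RPKM in the shTP63 line. KRT17 was at 0 to 0.99 RPKM in the shSOX2 line and at 0.37 to 2.56 RPKM in the shTP63 line. The 6 leukocyte markers and the 4 endothelial markers in the table were under 1 RPKM in all 6. Of 9 fibroblast and mesenchymal markers, COL1A1 and THY1 reached 1 RPKM. The summed level of the 9 was 2.84 and 3.91 RPKM at day 0 and 6.48 to 8.08 RPKM at day 4. COL1A2, DCN, LUM, PDGFRA and PDGFRB were at or near 0 in every library. The part of the fibroblast and mesenchymal markers in the day 4 differences below was not tested.

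WNT5A and LGR4 are the members that lay above day 0 in all 4 induced libraries with the largest differences, so the sequences before their transcription starts are shown. RefSeq promoter windows matched 5 of the 10 members by symbol. Each sequence is the 250 bases before a start in GRCh38.p14, read 5′ to 3′ on the gene's own strand, which is the minus strand for both genes. WNT5A has a pair of annotated starts. Capitals mark a GC box (GGGCGG or its reverse complement) in WNT5A and CCAAT boxes (CCAAT or its reverse complement) in LGR4.
WNT5A, upstream start, chr3:55487307-55487556: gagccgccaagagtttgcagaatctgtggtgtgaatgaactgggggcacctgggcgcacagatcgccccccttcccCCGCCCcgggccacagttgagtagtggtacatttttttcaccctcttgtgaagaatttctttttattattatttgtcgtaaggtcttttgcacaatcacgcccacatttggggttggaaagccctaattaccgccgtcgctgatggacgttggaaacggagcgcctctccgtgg
WNT5A, downstream start, chr3:55481399-55481648: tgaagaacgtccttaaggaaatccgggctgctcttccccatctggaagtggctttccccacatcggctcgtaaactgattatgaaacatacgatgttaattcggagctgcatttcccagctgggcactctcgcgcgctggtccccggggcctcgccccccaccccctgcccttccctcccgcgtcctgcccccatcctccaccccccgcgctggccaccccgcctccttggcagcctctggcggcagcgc
LGR4, chr11:27472791-27473040: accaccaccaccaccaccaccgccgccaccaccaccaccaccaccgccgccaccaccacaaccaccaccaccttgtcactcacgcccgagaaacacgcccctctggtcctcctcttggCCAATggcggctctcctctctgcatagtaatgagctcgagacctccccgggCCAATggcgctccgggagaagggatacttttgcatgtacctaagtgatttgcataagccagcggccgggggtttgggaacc
The upstream WNT5A window held 1 GC box and the downstream one held 0, while 42.6% of 35116 human promoter windows of this length held at least 1. The LGR4 window held 2 CCAAT boxes, a motif found in 32% of the windows. None of the 3 windows held a TCF/LEF motif (CTTTGAT or CTTTGAA, 5.94% of all windows), a SOX core (ACAATG or ACAAAG, 21.2%) or the p53-family decamer (5.57%), on either strand. The TCF/LEF motif and the reverse complement of ACAAAG share the letters CTTTG. No match says only that these letters are not in these windows. The windows use another genome build than the expression table, which was made on hg19 per the submitters' processing notes.

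**Figure D1:**
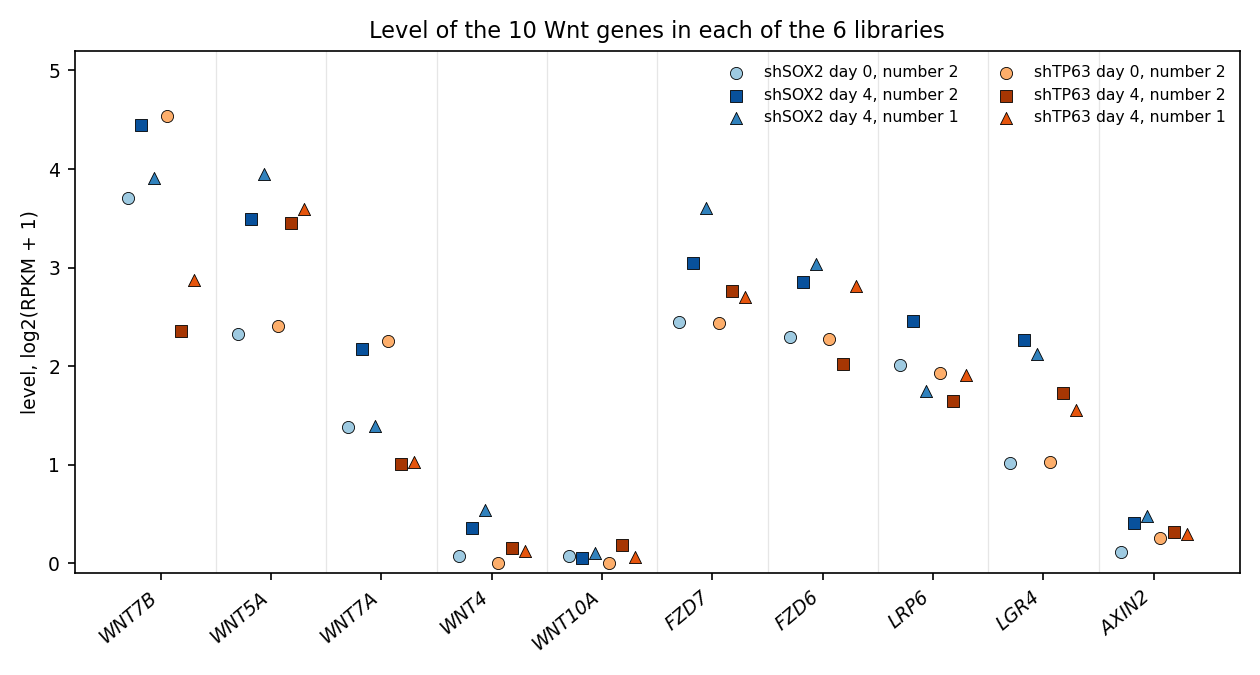
Level of each of the 10 Wnt genes, log2(RPKM + 1), in each of the 6 libraries; blue marks are the shSOX2 line, orange marks the shTP63 line, circles day 0, and squares and triangles the day 4 libraries numbered 2 and 1. WNT5A and LGR4 lie above both day 0 circles in all 4 day 4 libraries, and WNT7B and WNT7A lie lowest in the induced shTP63 libraries.

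Among the ligands, WNT5A was higher after induction of either hairpin. Without doxycycline WNT5A had a level of 2.32 in shSOX2 cells, and with it levels of 3.50 and 3.95. The corresponding levels in shTP63 cells were 2.41 without and 3.45 and 3.59 with doxycycline. All 4 day 4 libraries lay above both day 0 libraries, and the day 0 libraries were 0.08 apart. In these bulk libraries, a shift in the share of cells with a transcript and a shift in RNA per cell cannot be told apart. The difference of WNT5A was 1.40 ± 0.35 in the shSOX2 line (SE from limma, with 2 induced libraries and 1 uninduced, adjusted p = 0.349) and 1.11 ± 0.35 in the shTP63 line (limma adjusted p = 0.227). The mean of both responses was 1.26 ± 0.25 (limma adjusted p = 0.0776), so it did not pass the threshold of 0.05 over all tested genes. Of 10 alternatives it passed in 1, without shTP63 day 4 replicate 2, at 1.29 (limma adjusted p = 0.0494). Over the 10 the limma adjusted p ran up to 0.176. On the linear scale WNT5A was at 4.01 and 4.31 RPKM in the day 0 libraries and between 9.93 and 14.4 RPKM in the day 4 libraries.

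WNT5A-AS1, an RNA gene on the opposite strand that overlaps the WNT5A gene, had nearly the same values. It stood at 2.15 before and at 3.63 and 3.92 after induction in the shSOX2 line, and at 2.37, 3.62 and 3.63 in the shTP63 line. Its differences were 1.63 ± 0.33 (limma adjusted p = 0.31) and 1.26 ± 0.33 (limma adjusted p = 0.177). The annotated exons of both genes share 0 bases in GENCODE 29. No strand-specific step is stated in the labels' protocols, so reads of the 2 genes cannot be told apart by strand. WNT5A-AS1 was named after its values were seen.

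WNT7B was the ligand gene with the highest level in both uninduced libraries. Its level in shSOX2 cells was 3.71 without doxycycline and 4.45 and 3.90 with it. In shTP63 cells WNT7B went from 4.54 to 2.35 and 2.88. The induced shTP63 libraries were the lowest 2 of the 6, below both day 0 libraries and both induced shSOX2 libraries. The difference in the shTP63 line was -1.92 ± 0.40 (limma adjusted p = 0.137) and in the shSOX2 line 0.47 ± 0.40 (limma adjusted p = 0.702). The day 0 libraries differed by 0.83, with the shTP63 line higher. With the uninduced shTP63 library as the control instead, a choice made after seeing the data, the shSOX2 difference of WNT7B was -0.36. With the uninduced shSOX2 library as the control, the shTP63 difference of WNT7B was -1.10. Between the induced lines WNT7B was lower with the TP63 hairpin by -1.56 ± 0.33 (limma adjusted p = 0.082), which did not pass. Without shTP63 day 4 replicate 1 that difference was -1.82 and passed (limma adjusted p = 0.0391). Over 10 alternatives its adjusted p ran from 0.0391 to 0.291.

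WNT7A, the closest relative of WNT7B among the ligands, had a like order of libraries at lower levels. WNT7A was at 1.39 in uninduced and at 2.18 and 1.39 in induced shSOX2 cells. Uninduced shTP63 cells had 2.26, and induced ones 1.01 and 1.03. The induced shTP63 libraries were again the lowest 2, while the induced shSOX2 libraries were 0.78 apart and 1 of them equalled its day 0 library to 2 decimals. The difference was -1.24 ± 0.37 in the shTP63 line (limma adjusted p = 0.211) and 0.40 ± 0.37 in the shSOX2 line (limma adjusted p = 0.726). WNT7A differed by 0.87 between the day 0 libraries, with the shTP63 line higher. When the 2 uninduced libraries served jointly as the control, the shSOX2 difference of WNT7A was -0.040 and the shTP63 difference -0.80. With the uninduced shSOX2 library alone as the control, the shTP63 difference of WNT7A was -0.36 (limma adjusted p = 0.651).

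WNT4 and WNT10A, both ligands of epithelial development, were near the bottom of the table. WNT4 stood at 0.08 before and at 0.36 and 0.54 after induction of the SOX2 hairpin. It was listed at 0 before and stood at 0.15 and 0.12 after induction of the TP63 hairpin. WNT10A stood at 0.07, 0.05 and 0.10 in the shSOX2 line, and was listed at 0 before and stood at 0.19 and 0.06 after induction in the shTP63 line. The uninduced shTP63 library held no value between 0 and 0.143, so its 0 cannot be set against the day 4 values of that line. In a fit on all 28586 genes above 0 in any library, the shSOX2 difference of WNT4 was 0.38 ± 0.09 (limma adjusted p = 0.435) and that of WNT10A 0.00 ± 0.07 (limma adjusted p = 1).

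The order of the ligands by level differed between libraries. The linear RPKM of WNT5A was 0.331 of that of WNT7B in the uninduced shSOX2 library and 0.194 in the uninduced shTP63 library. After induction the ratio was 0.493 and 1.03 in the shSOX2 line and 2.41 and 1.75 in the shTP63 line. WNT5A was thus above WNT7B in both induced shTP63 libraries and below it in both uninduced ones. In induced shSOX2 replicate 1 the 2 genes were level. Summed over the 19 Wnt ligand genes, the linear level was 25.6 RPKM before and 49.8 and 52.8 RPKM after induction of the SOX2 hairpin. It was 36.8 RPKM before and 26.1 and 27.1 RPKM after induction of the TP63 hairpin. WNT7B made up 47.2% of that sum in the uninduced shSOX2 library and 60.3% in the uninduced shTP63 library, and 15.8% and 23.4% in the induced shTP63 libraries. WNT5A made up 15.6% and 11.7% in the uninduced libraries, 20.7% and 27.3% in the induced shSOX2 libraries, and 38.1% and 40.9% in the induced shTP63 libraries. WNT11, a ligand known mostly for signalling without beta-catenin, went from 4.48% to 10.0% and 20.9% in the shSOX2 line and from 1.12% to 15.8% and 13.5% in the shTP63 line. These sums and shares are descriptions with no test.

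**Figure D2:**
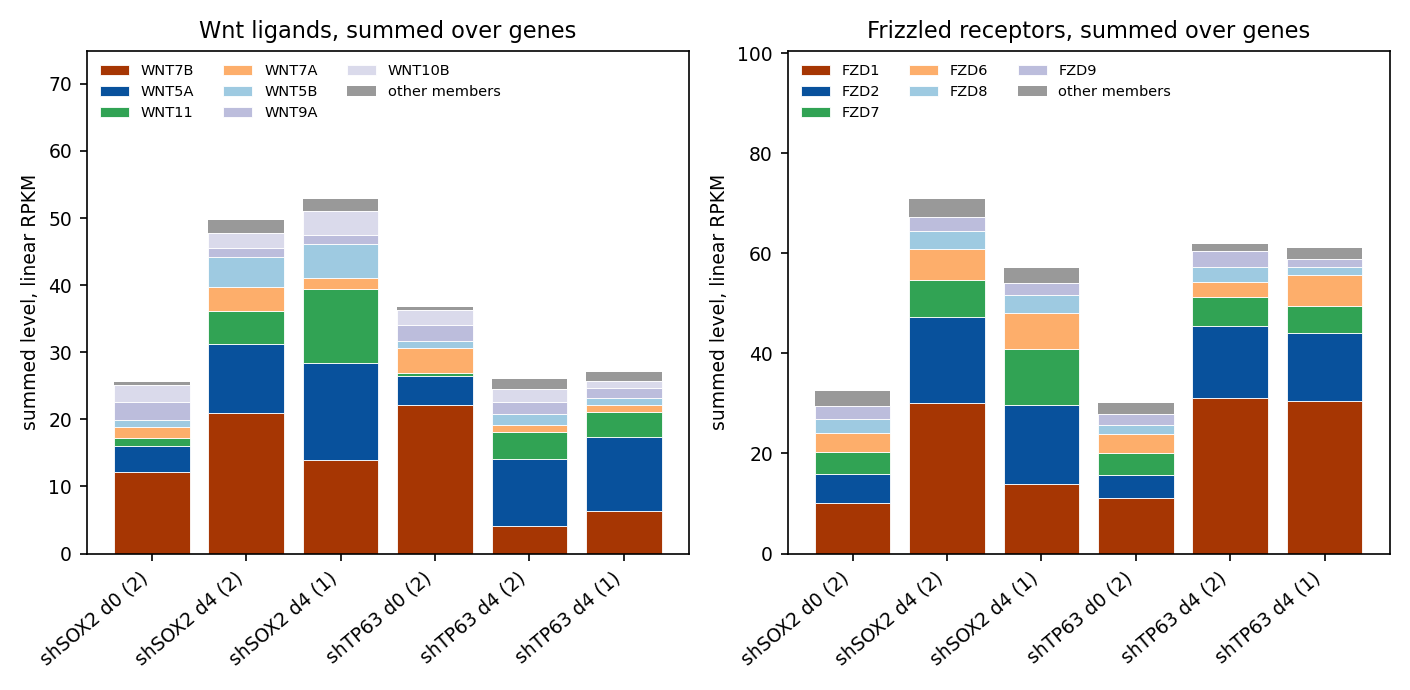
Linear RPKM summed over the 19 Wnt ligand genes (left) and the 10 Frizzled genes (right), stacked by gene, for each of the 6 libraries (d0, day 0; d4, day 4; library number in parentheses). The ligand sum is 49.8 and 52.8 RPKM in the induced shSOX2 libraries and 26.1 and 27.1 RPKM in the induced shTP63 libraries, where WNT5A takes a larger share than WNT7B.

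Of the Frizzled receptors, FZD7 was higher at day 4 in both lines. FZD7 stood at 2.45 before and at 3.04 and 3.61 after induction of the SOX2 hairpin. It stood at 2.44 before and at 2.76 and 2.71 after induction of the TP63 hairpin. All 4 day 4 libraries were above both day 0 libraries, and both induced shSOX2 libraries were above both induced shTP63 libraries. The difference was 0.88 ± 0.36 in the shSOX2 line (limma adjusted p = 0.463) and 0.30 ± 0.36 in the shTP63 line (limma adjusted p = 0.747). The responses of FZD7 did not differ past the threshold (-0.58 ± 0.50, limma adjusted p = 0.995).

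FZD6, a Frizzled receptor known for planar polarity in skin, stood at 2.29 before and at 2.85 and 3.03 after induction of the SOX2 hairpin. With the TP63 hairpin FZD6 stood at 2.28 before and at 2.02 and 2.81 after induction. The 2 induced shTP63 libraries lay on opposite sides of day 0, and both induced shSOX2 libraries lay above it. The difference was 0.65 ± 0.40 in the shSOX2 line (limma adjusted p = 0.585) and 0.14 ± 0.40 in the shTP63 line (limma adjusted p = 0.899). Without shTP63 day 4 replicate 1 the latter was -0.25. The annotated exons of FZD6 share 138 bases with the antisense gene BAALC-AS1.

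FZD6 and FZD7 each made up less of the summed Frizzled level than FZD1 or FZD2. In the uninduced shTP63 library FZD7 (14.7%) was close to FZD2 (15.0%). FZD1 and FZD2 had the highest levels of the 10 Frizzled genes in all 6 libraries. FZD1 stood at 3.46, 4.96 and 3.90 in the shSOX2 line and at 3.60, 5.01 and 4.97 in the shTP63 line (day 0, then day 4 replicates 2 and 1). FZD2 stood at 2.77, 4.19 and 4.07, and at 2.46, 3.94 and 3.87. The difference of FZD2 was 1.36 ± 0.33 in the shSOX2 line (limma adjusted p = 0.345) and 1.44 ± 0.33 in the shTP63 line (limma adjusted p = 0.142). Its mean response was 1.40 ± 0.23 (limma adjusted p = 0.0586). That of FZD1 was 1.18 ± 0.33 (limma adjusted p = 0.127). The summed Frizzled level was 32.6 RPKM before and 70.7 and 57.0 RPKM after induction in the shSOX2 line, and 30.1 before and 61.9 and 61.0 RPKM after induction in the shTP63 line. FZD7 made up between 9.06% and 19.6% of it, and FZD6 between 4.96% and 12.8%.

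Unlike FZD1, FZD2 and FZD7, the co-receptor gene LRP6 did not lie above day 0 in all 4 induced libraries. FZD5, FZD6, FZD8 and FZD9 did not either. The mean response was -0.051 ± 0.22 for FZD5, 0.26 ± 0.24 for FZD8 and -0.0036 ± 0.26 for FZD9. LRP6 stood at 2.01 before and at 2.46 and 1.75 after induction of the SOX2 hairpin, and at 1.94 before and at 1.65 and 1.91 after induction of the TP63 hairpin. The induced libraries overlapped the uninduced ones in level. The difference was 0.09 ± 0.37 in the shSOX2 line (limma adjusted p = 0.944) and -0.16 ± 0.37 in the shTP63 line (limma adjusted p = 0.878). LRP5, the other co-receptor of beta-catenin signalling, named after its values were seen, stood at 3.89, 4.73 and 4.49 in the shSOX2 line and at 3.60, 4.04 and 4.29 in the shTP63 line. Its mean response was 0.64 ± 0.25 (limma adjusted p = 0.199). LRP6 made up between 9.88% and 20.2% of the summed linear RPKM of LRP5 and LRP6.

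LGR4 was higher at day 4 in both lines. LGR4 stood at 1.02 before and at 2.27 and 2.13 after induction of the SOX2 hairpin. It stood at 1.03 before and at 1.73 and 1.56 after induction of the TP63 hairpin. The day 0 libraries were 0.01 apart, all 4 day 4 libraries were above them, and both induced shSOX2 libraries were above both induced shTP63 libraries. The difference was 1.18 ± 0.29 in the shSOX2 line (limma adjusted p = 0.349) and 0.61 ± 0.29 in the shTP63 line (limma adjusted p = 0.374). The mean of both responses was 0.90 ± 0.20 (limma adjusted p = 0.0972). Over 9 alternatives the mean response of LGR4 ran from 0.37, with a pseudocount of 5, to 0.97, and its adjusted p from 0.0782 to 0.205. LGR4 held between 97.1% and 100% of the summed linear RPKM of LGR4, LGR5 and LGR6. The 4 R-spondin genes were below the tested level.

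AXIN2 was low in all 6 libraries. AXIN2 stood at 0.12 before and at 0.41 and 0.48 after induction of the SOX2 hairpin, and at 0.26 before and at 0.32 and 0.29 after induction of the TP63 hairpin. All 4 day 4 libraries lay above both day 0 libraries, and in the shTP63 line the distance was at most 0.06. Fitted on all 28586 genes above 0, the difference of AXIN2 was 0.33 ± 0.06 in the shSOX2 line (limma adjusted p = 0.367) and 0.05 ± 0.06 in the shTP63 line (limma adjusted p = 0.806). AXIN2 shares 1316 of its 5226 annotated exonic bases with a second gene model on the same strand, so its level is uncertain. In the list of 14 feedback and target genes of beta-catenin, which holds AXIN2, 6 were tested. Their median difference was 0.15 in the shSOX2 line and 0.13 in the shTP63 line, against -0.05 and 0.00 over all tested genes, and 0 of the 6 passed in either. At an unadjusted limma p under 0.05 the count was also 0 of 6 in both lines, where 6.12% of all tested genes were higher and 4.26% lower (shSOX2) and 7.33% and 7.24% (shTP63), so a count of 0 among 6 genes is not a result about the list.

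**Figure D3:**
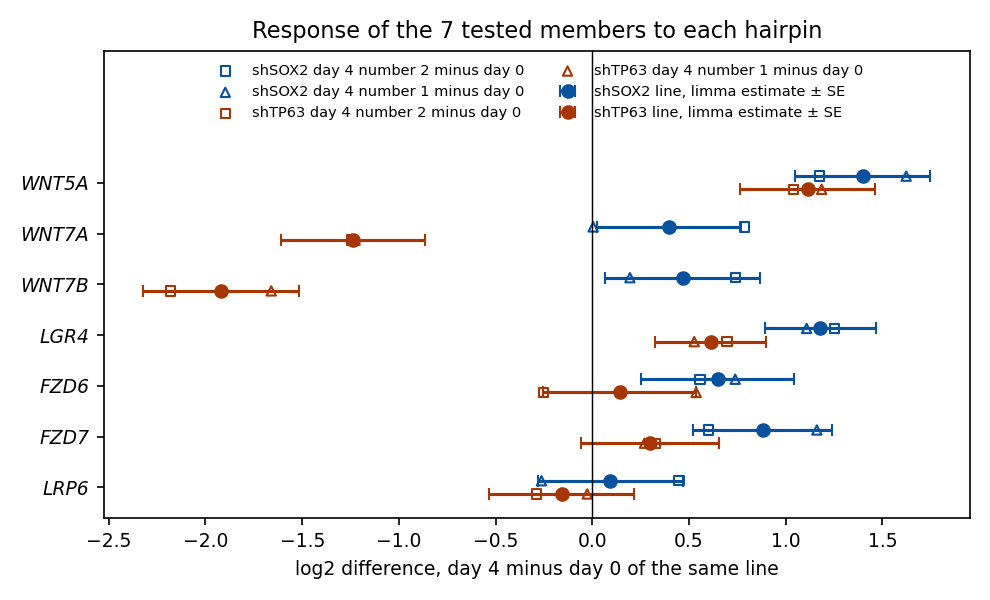
Differences on the log2 scale, day 4 minus day 0 of the same line, for the 7 tested members; filled circles and bars are limma estimates ± SE, and open marks are the single day 4 libraries. WNT5A is at 1.40 and 1.11 in the shSOX2 and shTP63 lines, while WNT7B is at 0.47 and -1.92.

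Side by side, the 7 tested members passed the test in 0 cases in each of the 5 comparisons. Over all tested genes limma called 0% after SOX2 hairpin induction, 0.019% after TP63 hairpin induction, 0.0569% for the mean of both responses, 0% for the difference of the responses and 0.759% between the induced lines. At an unadjusted limma p under 0.05, WNT5A, LGR4 and FZD7 were on the higher side in the shSOX2 line, where 6.12% of all tested genes were, and 0 members were on the lower side, where 4.26% were. After TP63 hairpin induction WNT5A was on the higher side, where 7.33% of all tested genes were, and WNT7A and WNT7B were on the lower side, where 7.24% were. In the shSOX2 line 6 of the 7 lay above day 0 in both induced libraries, as did 33.3% of all tested genes, and 0 lay below it in both (40.2%). For WNT7A the smaller of those distances rounded to 0.00. With the TP63 hairpin 3 of the 7 lay above day 0 in both (37.9% of all tested genes) and 3 below it in both (38.5%). WNT5A, LGR4 and FZD7 lay above day 0 in all 4 induced libraries, as did 19.4% of all tested genes, and 0 members lay below it in all 4 (23%). For the mean of both responses WNT5A, LGR4 and FZD7 were under an unadjusted 0.05 on the higher side (10.4% of all tested genes) and WNT7B on the lower side (10.1%). WNT5A and LGR4 were at least 1 higher in both induced shSOX2 libraries (2.48% of all tested genes, with 0.987% at least 1 lower). WNT5A was at least 1 higher in both induced shTP63 libraries (3.05%), and WNT7A and WNT7B at least 1 lower (2.82%). WNT5A alone of the 7 was at least 1 higher in all 4, as were 0.598% of all tested genes. The median difference of the 7 was 0.65 in the shSOX2 line and 0.14 in the shTP63 line, beside -0.05 and 0.00 over all tested genes. The members were chosen with earlier results of these data known, and the 7 passed a filter on their mean level. These counts and medians are therefore descriptions only.

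The responses of both lines were also set against each other. For WNT7B the shTP63 response minus the shSOX2 response was -2.39 ± 0.57 (limma adjusted p = 0.995), and for WNT7A it was -1.63 ± 0.53 (limma adjusted p = 0.995). TP63 itself, with -2.12 ± 0.46, did not pass this test either (limma adjusted p = 0.995). Set directly against each other, induced shTP63 and shSOX2 cells differed in TP63 by -1.73 ± 0.26, which passed (limma adjusted p = 0.0467), a call lost under 6 of 10 alternatives. For the difference of the responses, WNT7A and WNT7B were on the lower side at an unadjusted limma p under 0.05, as were 2.47% of all tested genes. In that comparison 0 members were on the higher side, where 2.08% were. For LGR4, FZD6 and FZD7 the difference of the responses was -0.57 ± 0.41, -0.51 ± 0.56 and -0.58 ± 0.50, and for WNT5A it was -0.28 ± 0.49 (limma adjusted p from 0.995 to 0.997). Between the induced lines, WNT7A, WNT7B, LGR4, FZD6 and FZD7 were lower in both shTP63 libraries than in both shSOX2 libraries, as were 26.6% of all tested genes, and 0 members were higher in both (30.5%). WNT5A and LRP6 overlapped. At an unadjusted p under 0.05, WNT7A, WNT7B and LGR4 were on the lower side (12.5% of all tested genes) and 0 members on the higher side (10.5%). The difference between the induced lines was -0.76 ± 0.30 for WNT7A (limma adjusted p = 0.194) and -0.55 ± 0.24 for LGR4 (limma adjusted p = 0.215).

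The wider pathway was described with 8 lists of 96 genes, of which 54 were tested. The 10 members are also in these lists. None of the 54 passed limma's test over all genes in any of the 5 comparisons as fitted on all 6 libraries. Under the alternatives, of the list genes beyond the members only LRP5 and the 10 named below were looked up. That was done for each line and for the mean response alone, and the remaining list genes were not looked up. Without single shTP63 libraries, or with both uninduced libraries as the control, some of the genes looked up passed. They were FZD2, WNT11 and SOST for the mean response, and FZD2 and SFRP5 in the shTP63 line. The members WNT5A and WNT7B passed without single shTP63 libraries, as given above. At an unadjusted p under 0.05, 11 of the 54 were on the higher side and 1 on the lower side in the shSOX2 line, beside 6.12% and 4.26% of all tested genes. The counts were 6 and 5 of the 54 in the shTP63 line, beside 7.33% and 7.24%. Of 19 ligand genes 7 were tested, with a median difference of 0.47 in the shSOX2 line and -0.35 in the shTP63 line. Of 19 receptor and co-receptor genes 12 were tested, with medians of 0.80 and 0.28. Of these 12, 10 lay above day 0 in both induced shSOX2 libraries (33.3% of all tested genes) and 7 in all 4 induced libraries (19.4%). Of 18 secreted or surface antagonists 9 were tested, with medians of 0.80 and 0.10. The 13 tested genes of the destruction complex and signal transduction had medians of -0.03 and -0.10, and the 9 tested nuclear effectors 0.15 and 0.19. The 3 tested genes of Wnt secretion had medians of 0.15 and -0.40. The lists were chosen with earlier results of these data known, so their counts and medians are descriptions only.

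Beyond the members, 10 genes of these lists differed from day 0 by at least 1, with the same sign, in the induced pair of a line. WNT11 stood at 1.10 before and at 2.58 and 3.59 after induction of the SOX2 hairpin, and at 0.50, 2.36 and 2.22 in the shTP63 line. Its mean response was 1.89 ± 0.31 (limma adjusted p = 0.0586), the largest of the named ligands. WNT5B, a close relative of WNT5A, stood at 1.08, 2.45 and 2.61 in the shSOX2 line and at 0.99, 1.35 and 1.09 in the shTP63 line. Its difference was 1.45 ± 0.30 in the shSOX2 line (limma adjusted p = 0.31) and 0.23 ± 0.30 in the shTP63 line (limma adjusted p = 0.764). WNT11 and WNT5A were thus apart from day 0 in both lines and WNT5B in 1 line, a contrast for which the difference of the WNT5B responses was -1.22 ± 0.42 (limma adjusted p = 0.995).

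Among antagonists, SOST, which blocks LRP5 and LRP6, stood at 2.94, 4.40 and 5.86 in the shSOX2 line and at 2.70, 4.47 and 2.81 in the shTP63 line. SOSTDC1, of the same protein family, stood at 3.55, 5.22 and 3.49, and at 2.57, 3.65 and 4.48. SFRP5, a secreted Frizzled-related protein, stood at 2.42, 2.31 and 1.41 in the shSOX2 line and at 2.22, 0.68 and 0.29 in the shTP63 line, where its difference was -1.73 ± 0.42 (limma adjusted p = 0.157). For SOST and SOSTDC1 the induced shSOX2 libraries were more than 1 apart. The induced shTP63 libraries were 1.67 apart for SOST and 0.83 apart for SOSTDC1.

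PORCN, the acyltransferase that lipidates Wnt proteins, stood at 5.81, 6.49 and 4.38 in the shSOX2 line and at 6.46, 4.82 and 3.83 in the shTP63 line. Its difference was -2.14 ± 0.81 in the shTP63 line (limma adjusted p = 0.283), and its induced shSOX2 libraries lay on both sides of day 0. TLE2, a co-repressor of TCF/LEF factors, had a difference of 1.63 ± 0.54 in the shTP63 line (limma adjusted p = 0.241). CCND1, the cyclin D1 gene, stood at 6.43 before and at 5.41 and 5.42 after induction in the shTP63 line (limma adjusted p = 0.356). In the uninduced shSOX2 library CCND1 stood at 5.34, so the size of that difference depends on 1 library.

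**Figure D4:**
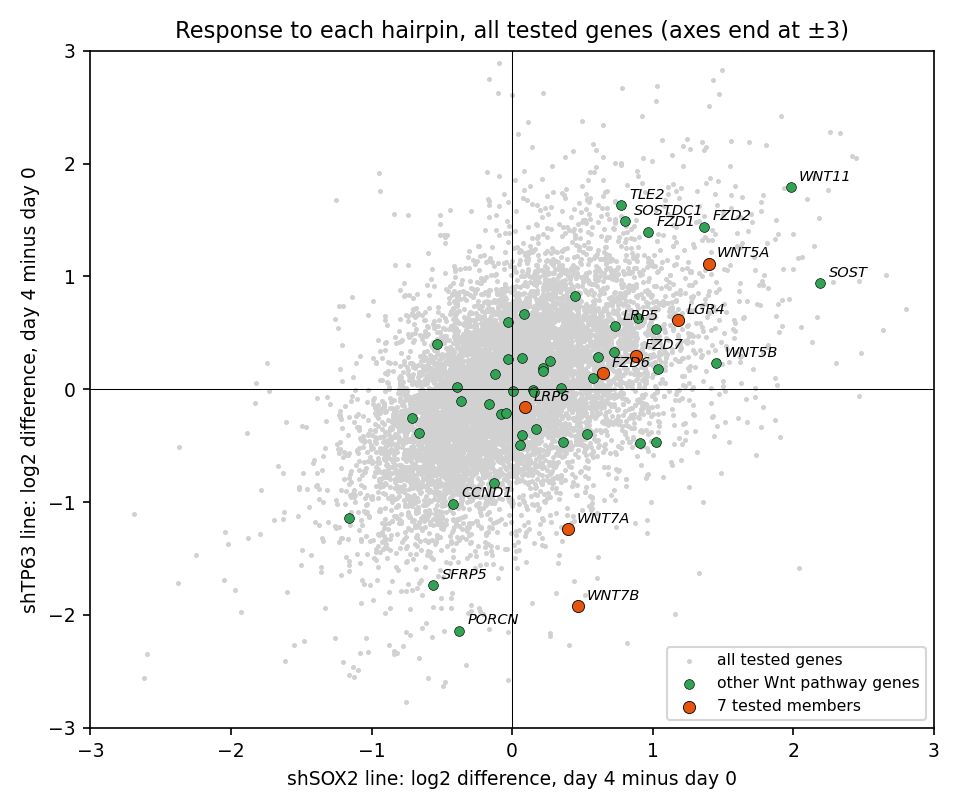
Difference on the log2 scale, day 4 minus day 0, in the shSOX2 line (horizontal) and the shTP63 line (vertical) for all tested genes (grey), 47 other tested Wnt pathway genes (green) and the 7 tested members (orange); 13 genes lie outside the axes. WNT5A (1.40 and 1.11) and LGR4 (1.18 and 0.61) are in the upper right, and WNT7B (0.47 and -1.92) is in the lower right.

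The profiles of the tested members over the 6 libraries were compared in pairs, and no grouping was run. After each gene was centred on its own mean, the root-mean-square difference between 2 members was smallest for LGR4 and FZD7 (0.25), FZD6 and FZD7 (0.28) and WNT5A and LGR4 (0.30). It was largest for WNT5A and WNT7B (1.15). WNT7A was nearer to LRP6 (0.38) and WNT7B (0.39) than to the other 4 tested members. Over all tested genes, the profiles most like that of WNT5A were TSC22D3 (0.09) and WNT5A-AS1 (0.12). For WNT7B they were NRG1 (0.16) and TNFRSF21 (0.22), and for WNT7A PHPT1 (0.13) and C7orf23 (0.14). For LGR4 they were HAPLN3 and FKBP9L (both 0.09), for FZD6 NUCB1-AS1 (0.07) and PIP4K2B (0.08), for FZD7 RP11-108L7.7 and TNK2 (both 0.09), and for LRP6 HES6 (0.07) and ATF4 (0.08). The profiles were not scaled, so 2 genes that each vary little are near each other for that reason too. These are descriptions over 6 libraries, of which 2 are day 0.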

How the data were processed

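Poly(A) RNA of 6 KYSE70 libraries was sequenced, in 4 groups taken from the sample titles. The authors deposited 1 table named as RPKM, and its values were read as log2 values of RPKM + 1, with base 2 assumed. All 6 columns share a highest value of 13.36, and 82.9% of the values above 0 are multiples of 1/7000, which is a pattern of quantile normalization, and depth can no longer be read from them. Per the submitters' processing notes the genome build was hg19. The planned test assumed linear RPKM. Since the values were already on a log scale, no further log was taken. Aligner, counter and annotation: not given in the sources used here.

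Genes whose mean linear level was 1 RPKM or more were tested with limma 3.58.1 in R 4.3.3, with 4 group means, a mean-variance trend, 2 residual and about 5.53 prior degrees of freedom. P-values are two-sided, Benjamini-Hochberg adjusted over 10536 genes, with a call under 0.05. The script was tested on simulated data. At most 0.123% of tested genes were equal in any 2 libraries. The labels name no separate cultures, so each p-value measures the spread between these libraries alone, and that spread may be technical. For a group with 1 library, limma takes its variance from the induced pairs.

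The members and lists were chosen with earlier results of these data known. Named beyond the members were list genes called, or at least 1 from day 0 on the log2 scale the same way in both induced libraries of a line, and the 2 genes nearest to each tested member in root-mean-square difference. LRP5 and WNT5A-AS1 were added after their values were seen. Alternatives were the filter, the pseudocount, the scaling, the trend, the control library, the line alone, the replicate block and each day 4 library left out. Promoter sequences are from RefSeq, GRCh38.p14. Overlapping genes are from GENCODE 29.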

Additional observations from a re-analysis of the deposited data

Results flagged for a closer look

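WNT7B and WNT7A stood apart because the induced libraries lay above day 0 in the shSOX2 line and below it in the shTP63 line, although 1 WNT7A library equalled its day 0 library to 2 decimals. WNT7B lay above day 0 by 0.74 and 0.19 in the induced shSOX2 libraries and below it by values of -2.18 and -1.66 in the induced shTP63 libraries. The shTP63 response minus the shSOX2 response of WNT7B, -2.39, missed the threshold (limma adjusted p = 0.995). The WNT7A differences from day 0 were 0.79 and 0.00 in the induced shSOX2 libraries, and the values were -1.25 and -1.23 in the induced shTP63 libraries. Its difference of responses, -1.63, missed it too (limma adjusted p = 0.995). Both genes were higher in the uninduced shTP63 library than in the uninduced shSOX2 library, by 0.83 for WNT7B and 0.87 for WNT7A. With the uninduced shTP63 library as the control the shSOX2 differences were -0.36 for WNT7B and -0.48 for WNT7A, so the directions were then no longer opposite. With both uninduced libraries as the control the shSOX2 difference was 0.055 for WNT7B and -0.040 for WNT7A, and the shTP63 difference was -1.51 and -0.80.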

How the results depend on the processing

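Counts of genes called over all tested genes depended on the settings. In the shSOX2 line the count was 0 as reported, 1 with a pseudocount of 5, 11 with the line alone, 2 with both day 0 libraries as the control and 4 with the day 0 library of the other line, a control chosen after seeing the data. In the shTP63 line it was 2 as reported, 154 with no filter, 1 at a mean RPKM of at least 5, 0 with the replicate block, 0 with the line alone, 291 with both day 0 libraries and 49 with that of the other line. For the mean response it was 6 as reported, 0 with no filter, 1 at a mean RPKM of at least 5 and 0 with the replicate block. Between the induced lines it was 80 as reported, 0 with no filter, 44 at a mean RPKM of at least 5, 30 with a pseudocount of 5 and 18 with the replicate block. Leaving out 1 day 4 library gave 0 to 11, 0 to 80, 0 to 263 and 0 to 324 genes in these 4 comparisons and 0 to 5 for the difference of the responses. In those 4 comparisons the upper ends came without a shTP63 library, and the count was 0 without either shSOX2 library. A library left out of the other line moves a count through the estimate of the spread alone. Where that leaves 1 day 4 library in a group, it was assumed to vary like the others.

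LRP6 changed sign most often. Its mean response was -0.03 as reported, 0.0013 with median-ratio scaling, 0.080 with the replicate block and -0.21 to 0.15 without single libraries. Without single libraries its shSOX2 difference ran from -0.26 to 0.45, its difference of responses from -0.61 to 0.11 and its difference between the induced lines from -0.68 to 0.029. FZD6 in the shTP63 line was -0.10 with the replicate block and, without single libraries, ran from -0.25 to 0.54. WNT5A between the induced lines then ran from -0.42 to 0.025. In the shSOX2 line WNT7A was -0.040 with both day 0 libraries and -0.48 with that of the other line, where WNT7B was -0.36 and TP63 -0.074. Of the other genes, in the shSOX2 line PORCN was 0.40 with the replicate block. Without single libraries PORCN ran from -1.43 to 0.68, SOSTDC1 from -0.060 to 1.67 and CCND1 from -0.92 to 0.083. In the shTP63 line CCND1 was 0.072 with the day 0 library of the other line and SOX2 was 0.065 with the replicate block. SOX2 between the induced lines, without single libraries, ran from -0.17 to 0.81. The cause of these moves was not tested. WNT5A kept its direction under all 13 alternatives in each line, as did LGR4 under 12, and WNT7B in the shTP63 line under 13. Most of these alternatives could not reverse a direction. The filter, the trend, the line alone and a library left out of the other line leave the difference itself unchanged. Leaving out 1 induced library cannot reverse it where both lie on the same side of day 0. The shTP63 differences were smaller with the uninduced shSOX2 library as the control, at -1.10 for WNT7B and -0.36 for WNT7A. The mean response passed without shTP63 day 4 replicate 1 or 2 for WNT11 (limma adjusted p = 0.0194 and 0.018), FZD2 (0.0315 and 0.0347) and WNT5A-AS1 (0.0296 and 0.0284), and without replicate 1 for SOST (0.0316). With both day 0 libraries as the control FZD2 (0.0396), SFRP5 (0.028), WNT5A-AS1 (0.0318) and TP63 (0.0248) passed in the shTP63 line. TP63 between the induced lines did not pass with no filter (limma adjusted p = 0.286), a pseudocount of 5 (0.0624), the replicate block (0.0667), without shSOX2 replicate 1 or 2 (0.182 and 0.235) or without shTP63 replicate 2 (0.0698).

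In the titles, number 2 marks the day 0 library and 1 day 4 library of each line. The day 4 libraries numbered 1 have no day 0 library of their number. The day 4 differences between replicates 2 and 1 of the 2 lines correlated at -0.0738 across genes. The replicate block changed no call of a member. Depth is unknown, so levels near 0 cannot be read against a detection limit.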
